A study of Homo sapiens with 6 samples.

Results

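The small nucleolar RNA (snoRNA) loci and their host genes were the genomic loci described here. Members were all rows of the deposited gene-level table that carried a symbol beginning with SNORA, SNORD, SCARNA or SNHG, apart from the SNORD115 and SNORD116 copies. The rule gave 298 rows of 406165 in the table, of which 30202 carried any gene symbol. Of the 298 rows, 277 named small RNAs alone (169 SNORD, 89 SNORA and 19 SCARNA). The other 21 also carried, or only carried, another symbol. Of these 21 rows, 12 held an SNHG (snoRNA host gene) symbol, 5 held another gene and 4 held a microRNA name only. The 73 rows of SNORD115 and SNORD116 shared no row with the members.

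SnoRNAs are short nuclear RNAs that lead protein partners to a base to be modified. Box C/D snoRNAs (SNORD) guide 2′-O-methylation and box H/ACA snoRNAs (SNORA) guide the conversion of uridine to pseudouridine, mostly in ribosomal RNA, and the Cajal body RNAs (SCARNA) guide the same changes in spliceosomal RNAs. In human cells most of them lie in introns, are cut out of the spliced lariat and are then trimmed, so that a host transcript and its snoRNAs start as 1 RNA but have separate fates. Many hosts encode ribosomal proteins or translation factors, while the SNHG genes and GAS5 make spliced RNAs with no known essential protein. The spliced hosts are cytoplasmic and may be turned over there, whereas mature snoRNAs sit in stable particles in the nucleolus.

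The study expressed tristetraprolin (TTP, the product of ZFP36), a protein that binds AU-rich elements in mRNAs and speeds their decay, in PC-3 cells, an established line from a bone metastasis of a prostate adenocarcinoma. All cells carried the pRetroX-Tet-On-Advanced retrovirus (rtTA2). The tdTom group also carried pRetroX-Tight-pPGK-tdTomato and the TTP-tdTom group carried pRetroX-Tight-TTP-pPGK-tdTomato. Infected cells were sorted for tdTomato. Both groups, of 3 samples each, received 300 ng/ml doxycycline (Dox) for 4 h, so Dox and the tdTomato marker were common to them. Strand-specific libraries from total RNA were sequenced in paired-end runs. The comparison asks which transcripts differ soon after TTP is switched on.

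The table gives 1 FPKM value (fragments scaled by transcript length and by library size) per group. The spread between the 3 samples of a group cannot be computed from these values, so no test was run on them, and every ratio below is a description of a pair of group values. A target depth is stated in the methods, but the fragments counted behind each FPKM value are unknown, since the values could not be turned back into whole reads. Ratios are log2 of TTP-tdTom over tdTom, so a negative value is lower with TTP. ZFP36 itself was at 5.56 FPKM in tdTom and 5.54 in TTP-tdTom, so this row did not show the induced transgene, and whether transgene reads could be counted there was not analysed. Over the 12092 rows with a symbol and at least 1 FPKM in both groups the median log2 ratio was -0.24. A smaller share of cells with an RNA and less of it per cell cannot be told apart in these bulk samples.

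Sequences of the RNAs that the results turn on are shown first, because members of the same locus or of near-identical sequence had group values that went apart. All are 5′ to 3′ from GENCODE release 29, with GRCh38 positions. In SNORD RNAs the capitals mark the C box (TGATGA, starting in the first 15 bases) and the D box (CTGA, in the last 12 bases). In SNORA RNAs they mark the H box (ANANNA, the match nearest the middle) and the ACA near the 3′ end. Only the strand of the RNA was searched.

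The first set is the pair in the RPL5 locus, SNORD21 (chr1:92837289-92837383, plus strand) and SNORA66 (chr1:92840719-92840851, plus strand), which had ratios in opposite directions.
SNORD21: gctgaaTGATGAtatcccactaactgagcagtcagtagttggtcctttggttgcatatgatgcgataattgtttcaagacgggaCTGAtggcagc
SNORA66: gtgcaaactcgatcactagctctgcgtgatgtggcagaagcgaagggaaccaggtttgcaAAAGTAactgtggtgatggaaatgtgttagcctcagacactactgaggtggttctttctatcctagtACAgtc

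The next set holds SNORA80 (chr21:32377187-32377322, minus strand) and SNORA80B (chr2:10446714-10446849, minus strand), which were identical at 91.9% of bases and which short reads may not separate.
SNORA80: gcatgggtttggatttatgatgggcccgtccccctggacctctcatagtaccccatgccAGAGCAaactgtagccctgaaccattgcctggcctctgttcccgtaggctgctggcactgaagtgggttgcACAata
SNORA80B: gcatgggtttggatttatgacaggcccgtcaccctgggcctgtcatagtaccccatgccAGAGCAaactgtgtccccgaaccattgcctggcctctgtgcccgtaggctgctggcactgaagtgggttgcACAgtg

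A further set holds the small RNAs with the highest and lowest log2 ratio, SNORD60 (chr16:2155023-2155105, minus strand) and SNORA31 (chr13:45337480-45337609, minus strand), and the most abundant SNORA, SNORA76 (chr17:64146339-64146471, plus strand).
SNORD60: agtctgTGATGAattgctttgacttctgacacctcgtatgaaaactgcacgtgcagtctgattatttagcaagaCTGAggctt
SNORA31: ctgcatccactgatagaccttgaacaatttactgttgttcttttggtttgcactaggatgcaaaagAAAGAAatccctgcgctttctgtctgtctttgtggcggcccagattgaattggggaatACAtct
SNORA76: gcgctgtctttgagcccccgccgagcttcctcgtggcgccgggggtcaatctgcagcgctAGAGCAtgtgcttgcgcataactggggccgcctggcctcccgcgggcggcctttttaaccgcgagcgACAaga

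The last set holds 2 short box C/D RNAs that were listed at 0 in tdTom and were among the most abundant in TTP-tdTom, SNORD95 (chr5:181243312-181243379, minus strand) and SNORD41 (chr19:12706449-12706518, minus strand).
SNORD95: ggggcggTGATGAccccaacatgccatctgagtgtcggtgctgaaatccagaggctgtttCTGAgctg
SNORD41: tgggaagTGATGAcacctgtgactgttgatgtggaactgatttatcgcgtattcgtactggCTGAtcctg

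A sequence was found for 249 of the 269 distinct small RNA symbols. The C and D boxes were both present in 87 of 146 SNORD (59.6%), and the H and ACA boxes in 68 of 85 SNORA (80%) and 11 of 18 SCARNA (61.1%). Of the 1004 GENCODE snoRNA and scaRNA transcripts, 20.6% had the first pair and 26.9% the second. Searched for the pair of the other class, 0 of 144 SNORD had the H and ACA boxes and 0 of 84 SNORA had the C and D boxes. A missing match says only that these letters were absent from the window, since many C boxes differ from the canonical one.

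Small RNAs were above 0 FPKM in some classes far more than in others. Of the 277 rows of small RNAs alone, 163 were listed at 0 in both groups, 42 at 0 in 1 group and 72 above 0 in both. At least 1 group was above 0 for 70 of 89 SNORA (78.7%) and 14 of 19 SCARNA (73.7%), but for 30 of 169 SNORD (17.8%). Among the SNORD rows, the imprinted SNORD113 and SNORD114 copies of chromosome 14 were above 0 in 2 of 39 rows. The rest of the SNORD rows were above 0 in 28 of 130 (21.5%).

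The class difference ran alongside RNA length. The median RefSeq length was 74 bases for SNORD, 134 for SNORA and 138 for SCARNA, with a length matched for 273 of 277 rows. Of RNAs up to 80 bases long, all of them SNORD, 7 of 112 (6.25%) were above 0 in any group. The share was 13 of 38 (34.2%) over 80 and up to 100 bases, 5 of 11 (45.5%) up to 120, 75 of 96 (78.1%) up to 150 and 14 of 16 (87.5%) above 150 bases. Within the SNORD class it was likewise 6.25% up to 80 bases and 4 of 5 (80%) over 120 and up to 150 bases. Library fragments longer than the RNA itself may bear on this count, but fragment lengths were not analysed here and their part was not tested.

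**Figure D1:**
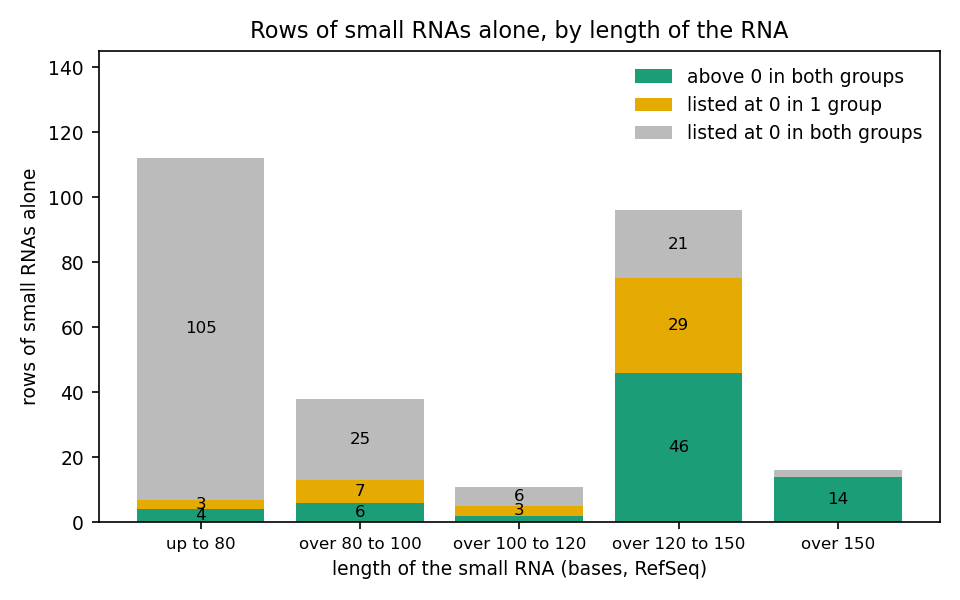
Number of rows of small RNAs alone (y axis) by RefSeq length of the RNA in bases (x axis), split by whether the group FPKM was above 0 in both groups, in 1 group or in neither. Of 112 RNAs up to 80 bases, 105 were listed at 0 in both groups, against 21 of 96 RNAs over 120 and up to 150 bases.

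Rows above 0 in 1 group alone were frequent among small RNAs up to 150 bases long. Over all rows with a symbol, 5.63% of those above 0 in any group were listed at 0 in the other. For small RNAs alone this was 36.8% (42 of 114), and for the 333 microRNA rows above 0 it was 29.1%. For rows without a symbol it was 27.6%. By length of the small RNA it was 42.9% (3 of 7) up to 80 bases and 53.8% (7 of 13) over 80 and up to 100. It was 60% (3 of 5) up to 120 and 38.7% (29 of 75) up to 150, so it did not fall step by step with length. All 14 of the RNAs above 150 bases that were above 0 anywhere were above 0 in both groups.

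The 42 rows at 0 in 1 group were divided between the groups, 17 at 0 in tdTom and 25 at 0 in TTP-tdTom. The 17 rows were 9 SNORD, 7 SNORA and 1 SCARNA, with TTP-tdTom values from 2.16 to 1012 FPKM and a median of 17.2. The 25 rows were 5 SNORD, 18 SNORA and 2 SCARNA, with tdTom values from 2.70 to 297 FPKM and a median of 17.5. High values occurred on both sides. SNORD95, in an intron of GNB2L1 (RACK1, a ribosome-bound scaffold), was listed at 0 in tdTom and at 1012 FPKM in TTP-tdTom. SNORD41, in TNPO2, was listed at 0 and 758 FPKM, SNORD33 at the RPL13A locus at 0 and 395, and SNORD110 at the NOP56 locus at 0 and 282. In the other direction SNORD92 was at 297 FPKM in tdTom and listed at 0 in TTP-tdTom, SNORD45A at 235 and 0, and SNORD46 at 175 and 0. All of these 7 were under 100 bases long, and no fold is given against a value of 0. FPKM divides by transcript length, so a few fragments on a short RNA give a large value, and the number of fragments behind these values is unknown.

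Where both groups were above 0, small RNAs were spread widely in both directions. Of the 72 rows, 36 were lower and 36 higher with TTP, the median log2 ratio was -0.02 and the middle 50% ran from -0.79 to 0.85. The sign of the median depended on the scale, at 0.22 relative to the median of expressed rows and -0.18 with a pseudocount of 0.1 over the 114 rows above 0 in any group. At least 2-fold lower were 13 rows (18.1%), against 10.8% of all 26880 rows with a symbol above 0 in both groups. At least 2-fold higher were 14 (19.4%), against 12.8%. Rows without a symbol, with a median of 0.52 FPKM in tdTom, were 2-fold lower in 23.8% and higher in 39.8%. Relative to the median of expressed rows the 2-fold counts were 11 lower and 21 higher. No background on that scale is given here, so these counts cannot be set against the shares of all rows. The gap to rows with a symbol was wider among rows of at least 1 FPKM in both groups. There 12 of 66 small RNAs (18.2%) were 2-fold lower, against 8.15% of 12092 rows, and 13 (19.7%) were 2-fold higher, against 0.43%. Other non-coding rows at that level were not spread in this way, with 39 of 699 (5.58%) lower and 7 (1.00%) higher. Of 236 microRNA rows above 0 in both groups, which share the short length, 24.2% were 2-fold lower and 25% higher. Their median was 0.70 FPKM in tdTom, against 16.7 for the 72 small RNA rows. No microRNA share at 1 FPKM or more is given here.

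Every class had rows past 2-fold in both directions. Among 45 SNORA rows above 0 in both groups 9 were 2-fold lower and 9 higher, with a median of -0.04. Among 16 SNORD rows 2 were lower and 4 higher, with a median of 0.08, and among 11 SCARNA rows 2 were lower and 1 higher, with a median of -0.21. By RNA length, 19 of 46 rows (41.3%) over 120 and up to 150 bases were past 2-fold in either direction, compared with 3 of 14 rows (21.4%) above 150 bases. Over all rows with a symbol above 0 in both groups the share was 23.5%, near that of the longest RNAs. Shorter RNAs were too few to compare, with 1 of 4 past 2-fold up to 80 bases, 3 of 6 up to 100 and 1 of 2 up to 120.

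**Figure D2:**
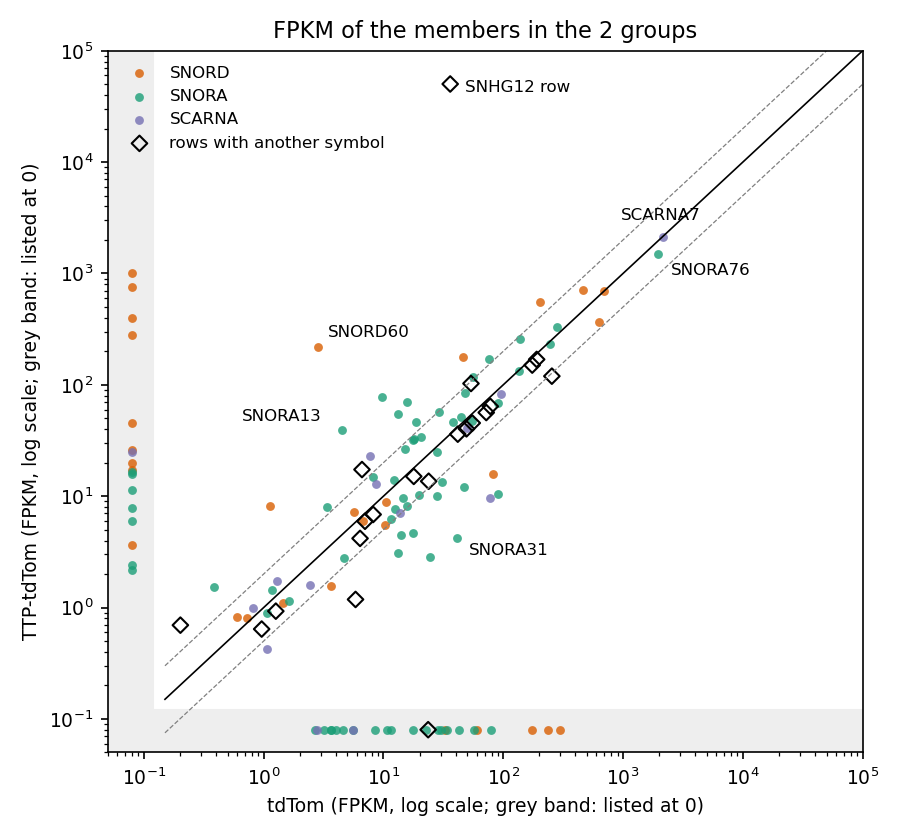
Group FPKM of each member in tdTom (x axis) and TTP-tdTom (y axis), both on log scales, with points in the grey bands listed at 0 in that group; the solid line marks equal values and the dashed lines 2-fold. Small RNAs scatter on both sides of the line, 36 below and 36 above, while most rows with another symbol lie close to it and the SNHG12 row stands apart at 36.1 and 50289 FPKM.

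The share of abundant small RNAs within 2-fold depended on how abundance was set. Of the 10 rows at 100 FPKM or more in both groups, 1 was past 2-fold, with log2 ratios from -0.76 to 1.45. This cut decides nothing, since it leaves out any row that is low in 1 group. A count at 100 FPKM or more in either group decides nothing either, since the higher group alone can admit a row. It held 21 rows, of which 7 were listed at 0 in the other group, 5 were past 2-fold and 9 were within 2-fold. Of those 5, 4 were under 100 FPKM in 1 group. At a mean of at least 10 FPKM 20 of 50 rows above 0 in both groups (40%) were past 2-fold, beside 37.5% of all 72. Of all rows with a symbol, 23.5% of those above 0 in both groups and 8.58% of those at 1 FPKM or more in both were past 2-fold. No background at a mean of 10 FPKM is given here. SCARNA7 (U90), which guides methylation of the U1 spliceosomal RNA, was at 2138 FPKM in tdTom and 2139 in TTP-tdTom, a log2 ratio of 0.00. SNORA76 was at 1977 and 1488 FPKM (-0.41), and SNORD89 at 689 and 700 (0.02). Another pair of box C/D RNAs went apart. SNORD35A at RPL13A was at 627 and 370 FPKM (-0.76) and SNORD35B was at 466 and 704 (0.60). Past 2-fold was SNORD21, shown above, at 203 FPKM in tdTom and 554 in TTP-tdTom (1.45).

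The lowest ratios were those of SNORA31, SNORA70, SNORA66, SCARNA18 and SNORD88B. SNORA31, in TPT1 (a growth-related protein made in large amounts), was at 40.7 FPKM in tdTom and 4.20 in TTP-tdTom, a log2 ratio of -3.28. SNORA70, at RPL10, was at 90.6 and 10.5 (-3.10), and SNORA66, at RPL5, at 24.3 and 2.84 (-3.10). SCARNA18 was at 77.6 and 9.72 (-3.00), and SNORD88B, at C19orf48, at 82.9 and 15.9 (-2.38). SNORA70 and SNORD88B have near copies: SNORA70B and SNORA70C were 90.4% identical to SNORA70 and listed at 0 in both groups, and SNORD88A, 91.2% identical to SNORD88B, was also at 0 in both. Another copy, SNORD88C (87.9% identical to SNORD88B), was listed at 0 in tdTom and at 19.7 FPKM in TTP-tdTom. The split of reads within these families is uncertain.

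The highest ratios were those of SNORD60, SNORA13, SNORA20, SNORD15B and SNORA80B. SNORD60 was at 2.82 FPKM in tdTom and 219 in TTP-tdTom, a log2 ratio of 6.28. SNORA13, in EPB41L4A-AS1, was at 4.48 and 39.6 (3.14), and SNORA20, at TCP1 (a chaperonin subunit), at 9.70 and 77.7 (3.00). SNORD15B was at 1.13 and 8.09 (2.84), and SNORA80B, in ODC1, at 15.8 and 69.5 (2.14). SNORA80, its near copy on another chromosome, was at 90.2 FPKM in tdTom and 69.1 in TTP-tdTom (-0.38), so the pair had like values in TTP-tdTom and unlike values in tdTom, and reads of these RNAs may have been divided between them. SNORD60 and SNORD15B were under 3 FPKM in tdTom, so their ratios rest on a low tdTom value, and the fragments behind it are unknown.

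Other small RNAs were named for their known roles or size. SCARNA2, a Cajal body RNA for the U2 spliceosomal RNA with no other gene row at its locus, was at 2.43 FPKM in tdTom and 1.61 in TTP-tdTom (-0.59). SCARNA5 and SCARNA6, both in ATG16L1, were at 0.82 and 1.00 FPKM (0.29) and at 1.06 and 0.43 (-1.31, or -0.53 with a pseudocount of 1). SNORD17, which is long for a box C/D RNA, was at 10.5 and 8.82 (-0.26). SNORD3A, SNORD13, SNORD118, SNORA73A and SNORA73B were not analysed here.

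Locus length, by contrast with RNA length, described the surrounding transcription unit. The locus of a row spans the whole bundle of overlapping transcripts, from 67 to 990401 bases with a median of 17331 for small RNAs alone, which lay at 190 distinct loci. All 40 rows with a locus of up to 150 bases, in which nothing but the small RNA was placed, were listed at 0 in both groups. Most of them were SNORD113 and SNORD114 copies of chromosome 14, which were above 0 in 2 of 39 rows at any locus length. Of all 469 rows with a symbol at up to 150 bases, 450 were listed at 0 in both groups. No row had a locus over 150 and up to 300 bases. Up to 1000 bases 5 of 6 rows were above 0 in both groups and 0 of these 5 were past 2-fold, beside 13.8% lower and 23.4% higher of all rows with a symbol at that length. Over 1000 and up to 10000 bases 20 of 71 rows were above 0 in both, with 4 lower and 4 higher past 2-fold (20% each, beside 9.09% and 12.2%) and a median of 0.39. Above 10000 bases 47 of 160 were above 0 in both, with 9 lower and 10 higher (19.1% and 21.3%, beside 11.1% and 12.7%) and a median of -0.20. Rows without a symbol were 2-fold lower in 14.5% and higher in 28.4% over 1000 and up to 10000 bases. Above 10000 bases these shares were 20.9% and 20.8%, near those of the small RNAs. Among rows with a symbol that were above 0 in any group, the share at 0 in the other was 84.2% up to 150 bases, 63.6% up to 300, 8.38% up to 1000, 4.56% up to 10000 and 5.72% above 10000 bases.

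The 17 rows with an SNHG or other gene symbol gathered at a small negative ratio. All were above 0 in both groups and 13 were lower with TTP, with a median of -0.25 and a middle 50% from -0.36 to -0.17, and 1 was 2-fold lower and 3 were 2-fold higher. With the 4 rows that hold a snoRNA and a microRNA name but no host gene, 20 of 21 rows were above 0 in both groups, 16 of them lower, with a median of -0.27. Of these 20, 2 were 2-fold lower, SNORA81 with MIR1248 among them, and 3 higher, 10.0% and 15%, beside the 10.8% and 12.8% of all rows with a symbol given above. At 1 FPKM or more in both groups 17 of the 21 rows remained (microRNA rows included), with 2 lower (11.8%) and 2 higher (11.8%), beside 8.15% and 0.43% of the 12092 rows at that level. The median of expressed rows was -0.24, and relative to it the median of the 20 rows was -0.03.

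The 9 lower SNHG rows had log2 ratios from -0.81 to -0.17. SNHG1, in a row with SNORD22, SNORD29 and SNORD25, was at 49.3 FPKM in tdTom and 40.3 in TTP-tdTom (-0.29). SNHG6 was at 190 and 169 (-0.17), SNHG7, with SNORA17 and SNORA43, at 77.9 and 64.1 (-0.28), and SNHG9 at 72.1 and 56.4 (-0.36). SNHG10 was at 7.02 and 5.95 (-0.24). SNHG8 had the lowest ratio of the SNHG rows, at 23.8 and 13.6 FPKM (-0.81). None of these 6 was past 2-fold.

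Some host genes had a pair of rows at the same locus. SNHG5 was at 41.7 FPKM in tdTom and 36.1 in TTP-tdTom in the row with SNORD50B (-0.21) and at 1.26 and 0.93 in the other (-0.44). SNHG15 was at 6.38 and 4.18 (-0.61) in its main row and at 0.20 and 0.69 in the other (1.78, or 0.50 with a pseudocount of 1), which was the only SNHG row under 1 FPKM in both groups. The less abundant row of each pair may hold antisense or partial transcripts, which the table does not identify.

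GAS5, a host of many box C/D RNAs whose spliced transcript is degraded as it is translated, was at 17.9 FPKM in tdTom and 15.1 in TTP-tdTom (-0.25) in a row with SNORD80 and SNORD76. C17orf76-AS1, with SNORD49B, was at 55.1 and 45.4 (-0.28), and CCT6P1, with SNORA22, at 175 and 150 (-0.21). RPL32P3, a ribosomal protein pseudogene in a row with SNORA7B, was at 255 and 120 (-1.09) and was past 2-fold, but not relative to the median of expressed rows (-0.85). DANCR, a long non-coding RNA in a row with SNORA26, was higher with TTP at 53.8 and 103 FPKM (0.93), which was past 2-fold only relative to that median (1.18). SNHG11, with SNORA39, was also higher, at 6.62 and 17.3 (1.39). Each of these rows combines the host with its small RNAs, and which of them carried the value cannot be told apart.

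**Figure D3:**
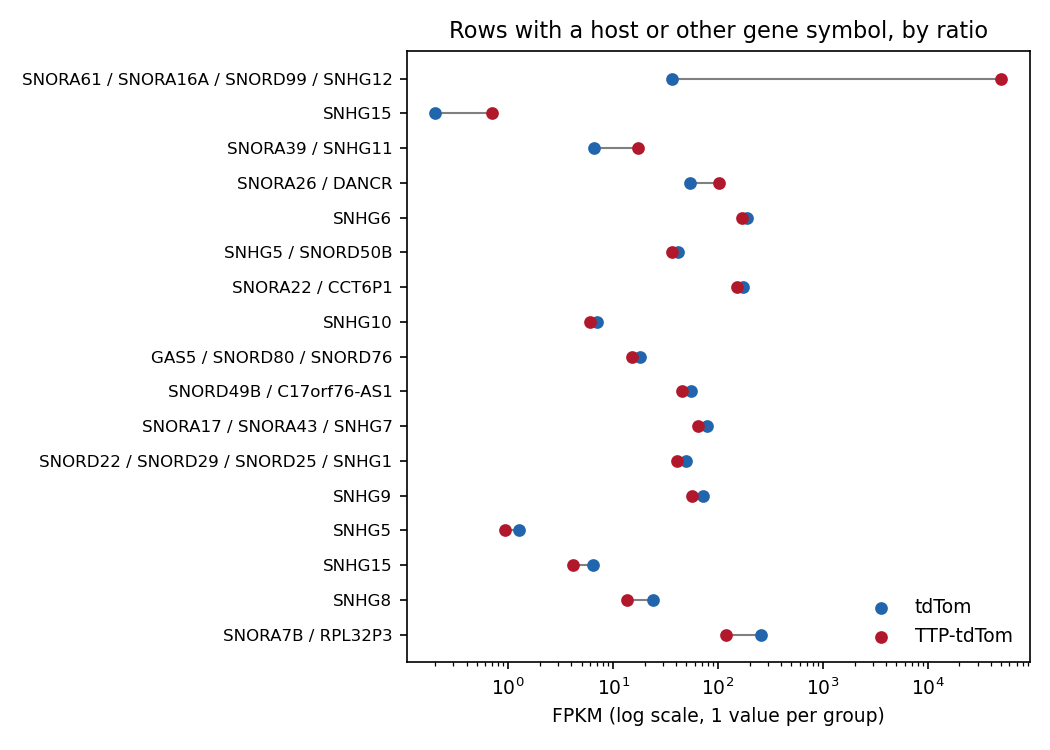
FPKM (x axis, log scale, 1 value per group) of the 17 rows with an SNHG or other gene symbol in tdTom (blue) and TTP-tdTom (red), ordered by ratio, with a line joining the values. In 13 of 17 rows TTP-tdTom is lower, mostly by a short distance, and the SNHG12 row is the longest line.

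The SNHG12 row was the extreme of the whole table. It held SNORA61, SNORA16A, SNORD99 and SNHG12 together, at GRCh37 chr1:28879367-28908486 as the table gives the locus, and was at 36.1 FPKM in tdTom and 50289 in TTP-tdTom, a log2 ratio of 10.44. This was the highest ratio among rows with a symbol and made up 10.1% of their summed FPKM in TTP-tdTom, compared with 0.0070% in tdTom. TRNAU1AP, the other gene at the locus, was at 3.78 and 4.44 FPKM (0.23). SNORA44, a small RNA with its own row at the locus, went the other way, at 30.8 and 13.5 FPKM (-1.19). The row combines a spliced host with RNAs of 80 to 134 bases, and which of its transcripts carried the value cannot be told apart at the gene level. Without this row the other SNHG rows were 9 lower and 2 higher. Whether the value came from 1 sample or all 3 of the TTP-tdTom group is unknown.

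The 4 rows with a microRNA name were lower or listed at 0 with TTP. In each the microRNA is cut from or overlaps the snoRNA. SNORA81 with MIR1248 was at 5.85 FPKM in tdTom and 1.18 in TTP-tdTom (-2.31). At the same locus EIF4A2, a translation initiation helicase, was at 56.9 and 29.3 (-0.96) and RFC4 at 52.8 and 53.1 (0.01). SNORA36B with MIR664 was at 0.96 and 0.64 (-0.59), SNORA84 with MIR3651 at 8.21 and 6.85 (-0.26), and SNORA34 with MIR1291 at 23.6 and listed at 0.

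Small RNAs and the single gene at their locus were compared where the table gave a row to each. A single gene here means 1 row with a gene symbol, and some such rows named more genes, as FLT3LG with RPL13A. Strand and intron position were not checked. Of 140 such small RNA rows 45, at 38 loci, were above 0 in both groups. The genes kept to a narrow range, from -1.04 to 0.27 with a median of -0.25, and were lower with TTP at 33 of 38 loci, beside 80.5% of all expressed rows with a symbol. The small RNAs at those loci had a median of 0.24 and a middle 50% from -0.50 to 0.87. In 20 of 45 pairs both had the same sign, and in 18 the log2 ratios were at least 1 apart. The genes at the loci of all 15 small RNAs past 2-fold were within 2-fold, as were 11055 of the 12092 expressed rows with a symbol. The 1 gene past 2-fold was EIF1AX (-1.04), whose small RNA SCARNA9L had a log2 ratio of 0.41.

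Single loci showed the same separation. TPT1 was at 1027 FPKM in tdTom and 855 in TTP-tdTom (-0.27), beside SNORA31 at -3.28. EPB41L4A-AS1 was at 18.8 and 21.2 (0.17), beside SNORA13 at 3.14, and ODC1, which makes polyamines, was at 411 and 312 (-0.40), beside SNORA80B at 2.14. TMEM167A was at 52.6 and 27.9 (-0.91), beside SCARNA18 at -3.00, the same direction for both. Of the 30 small RNAs at 0 in 1 group with a single gene at the locus, 29 had a gene within 2-fold, beside 11055 of 12092 expressed rows. The other was SNORA79, at 79.0 FPKM in tdTom and listed at 0 in TTP-tdTom, where GTF2A1 was at 22.1 and 8.97 (-1.30). The median FPKM of the gene in tdTom was 47.6 at loci with a small RNA above 0 and 30.8 at loci of the 65 rows at 0 in both.

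**Figure D4:**
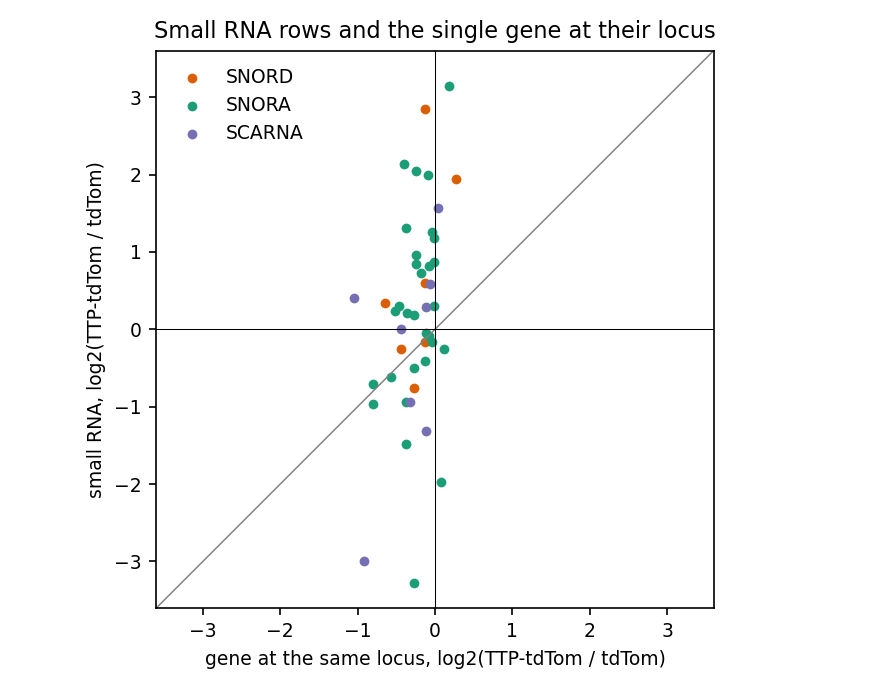
Log2 ratio of TTP-tdTom over tdTom for the single gene at a locus (x axis) and for the small RNA row there (y axis), for the 45 pairs above 0 in both groups, coloured by class; the diagonal marks equal ratios. The genes fall between -1.04 and 0.27 while the small RNAs run from -3.28 to 3.14.

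Small RNAs of 1 locus did not always share a direction. At 19 loci with at least 2 small RNAs that had a direction (those at 0 in 1 group included), 11 held both directions and 8 held 1. Over all loci 36 small RNA rows above 0 in both groups were lower and 36 higher. Small RNAs of different loci were not compared in the same way, so the count is a description. In RPL5, which was at 886 FPKM in tdTom and 802 in TTP-tdTom (-0.14), SNORD21 was higher (1.45) and SNORA66 lower (-3.10). In RPS3, at 103 and 94.5 FPKM (-0.13), SNORD15A was at 6.79 and 6.04 (-0.17) and SNORD15B was higher (2.84). The SNORA71 cluster in LOC388796, itself at -0.37, held SNORA71A at 19.9 and 10.3 (-0.94), SNORA71B at 28.1 and 10.1 (-1.48), SNORA71C at 18.7 and 46.2 (1.31) and SNORA71D at 4.03 and listed at 0. SNORA71B and SNORA71D were 90.3% identical and SNORA71B and SNORA71C 85.8%, so the split of reads among them is uncertain. In RPS2, at -0.24, SNORA10 (29.2 and 57.0, 0.96) and SNORA64 (18.01 and 32.4, 0.85) were both higher.

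Small RNAs at loci of translation genes were counted apart, since many hosts belong there. Loci were sorted by the first symbol of the gene row listed for them, as RPL, RPS, EEF and EIF or as other. At the RPL, RPS, EEF and EIF loci 55 small RNA rows gave 21 above 0 in both groups. Of these 21, 4 were 2-fold lower (19.0%) and 3 higher (14.3%), with a median of -0.04. At the other loci 171 rows gave 43 above 0 in both, with 8 lower (18.6%), 11 higher (25.6%) and a median of 0.20. The RPL13A, EIF4A1 and EIF4A2 loci fell among these, since another symbol stood first or another gene was listed, so the split is incomplete. The shares over all rows with a symbol were 10.8% and 12.8%. Ribosomal protein rows were counted where they carried no other symbol. Of 21 such rows with a small RNA row at the locus, 19 were lower, none was past 2-fold and the median was -0.14. Of all expressed rows with a symbol 80.5% were lower. The rows of RPL13A (-0.27), RPL13 (-0.21) and RPL17 (-0.17) also had small RNA rows at the locus but carried other symbols and were left out. Of 53 such rows without a small RNA row, 49 were lower, none was past 2-fold and the median was -0.15.

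The proteins that build and finish snoRNA particles were taken from a list of 36 names by role, of which 33 had a row; SNU13 and BCD1 are other names of NHP2L1 and ZNHIT6, and SMN1 was not analysed here. For DBR1, SMN2 and MPHOSPH10, which had 2 rows each, only the row with the higher mean FPKM was used. SMN2 was at 0.58 FPKM in tdTom and 0.40 in TTP-tdTom, below the level of the expressed rows. Of the 33 genes 32 were lower with TTP, 1 of them past 2-fold, with a median of -0.27. Over the 12092 expressed rows with a symbol 9731 (80.5%) were lower, 8.15% were 2-fold lower and the median was -0.24. IMP3, a part of the U3 processome that trims the ribosomal RNA precursor, was the only one higher, at 15 and 16.8 FPKM (0.17). The box C/D core was close to equal for FBL, the methyltransferase, at 20.5 and 19.3 (-0.08), and for NOP56 at 190 and 180 (-0.08), and lower for NOP58 at 109 and 84.5 (-0.36). In the box H/ACA core DKC1, the pseudouridine synthase, was at 38.4 and 30.0 (-0.36), GAR1 at 33.6 and 26.1 (-0.36), NHP2 at 90.4 and 79.7 (-0.18) and NOP10 at 91.1 and 83.4 (-0.13).

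By role, the medians were -0.17 for box C/D proteins, -0.27 for box H/ACA proteins, -0.29 for assembly, -0.30 for Cajal body proteins, -0.26 for the U3 processome, -0.22 for export and cap, -0.12 for trimming and -0.88 for debranching, which is DBR1 alone, and no difference between roles was tested. The 5 genes with the lowest ratios were NAF1, DBR1, PHAX, RPAP3 and ZNHIT6, while RUVBL2 (-0.04), another assembly gene, and TCOF1 (-0.07), of the export and cap group, were near 0. NAF1, which holds new box H/ACA particles until GAR1 takes its place, was at 15.2 FPKM in tdTom and 6.25 in TTP-tdTom (-1.28). DBR1, the enzyme that opens the intron lariat from which snoRNAs are cut, was at 6.27 and 3.40 (-0.88). PHAX, an export adaptor that also carries snoRNAs to Cajal bodies, was at 34.4 and 20.6 (-0.74). RPAP3, of the R2TP complex, was at 15.7 and 9.60 (-0.71), and ZNHIT6, a box C/D assembly factor, at 36.6 and 23.0 (-0.67). The trimming enzymes PARN (-0.22) and EXOSC10 (-0.02) were nearer to 0. The 8 core proteins ran from -0.36 to -0.08 and the 9 assembly genes from -1.28 to -0.04.

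**Figure D5:**
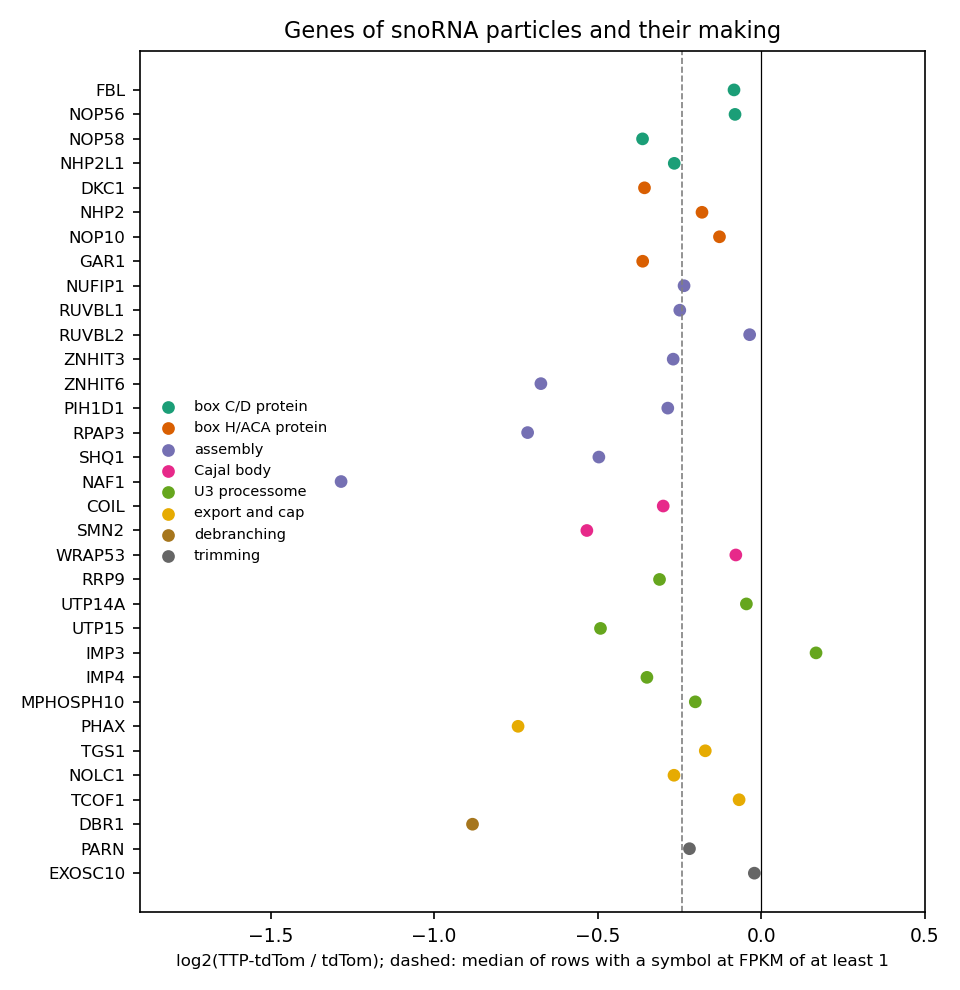
Log2 ratio of TTP-tdTom over tdTom (x axis) for the 33 listed genes of snoRNA particles and their making (y axis), coloured by role; the dashed line is the median of rows with a symbol and at least 1 FPKM in both groups, -0.24. NAF1 at -1.28 is lowest and IMP3 at 0.17 is the only gene above 0.

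TTP binds the heptamer UAUUUAU, so the spliced hosts were searched for it as TATTTAT. Of 14 host transcripts with a GENCODE sequence 2 (14.3%) held 1 copy, compared with 8.66% of 21627 long non-coding genes of the same length range (275 to 2161 bases). They were SNHG1 and SNHG6. In SNHG1 (GRCh38 chr11:62851988-62855867, minus strand) the copy began at base 1002 of 1487, shown with its flanks and the heptamer in capitals.
SNHG1: tcctgcaacatTATTTATctggaatctac
The ratios of the hosts that held a copy, -0.29 for SNHG1 and -0.17 for SNHG6, lay within the range of hosts that did not. The match is a description of letters and not of binding.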

How the data were processed

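RNA-Seq of PC-3 cells with tdTom or TTP-tdTom was examined, with 3 samples in each of 2 groups. Per the submitters' processing notes, reads were aligned with TopHat2 2.0.13 and assembled with Cufflinks 2.2.1; the methods give Hs37D5 (GRCh37) as the genome. The FPKM values were computed by the authors and deposited as 1 value per group and locus, with the samples already combined, so replicates and counts were not analysed here. The table's log2 fold changes, test statistics, p-values, q-values and status calls are the authors' own comparison and were not used.

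Members and lists were chosen with earlier results of these data known. Symbols were made unique within a row and each row was counted once. Ratios used rows above 0 in both groups with no pseudocount. A row was counted as past 2-fold when the group values differed by at least that much, and the same count over all rows with a symbol was the background. The counting was tested on simulated data. Rows with the same locus in the table were taken to share it. The design had allowed for values per sample; as the table holds group values, no test was run.

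The genes named are the SNHG rows and GAS5, a short list of well-known small RNAs, and 5 rows at each end of the ratio among host and small RNA rows. The 5 small RNAs with the highest mean FPKM among rows above 0 in both groups were also named. Examples at 0 in 1 group, at shared loci and among near copies were chosen after their values were seen. RNA lengths came from RefSeq (GRCh38.p14) by accession, and sequences from GENCODE release 29. Of the 249 sequences 123 had the RefSeq length. Some host genes and 1 sequence are not reported here. Alternatives were pseudocounts of 0.1 and 1, a minimum mean FPKM of 1 or 10, centring on expressed rows, rescaling to the same sum, a fold of 1.5 and other definitions of a host row. Python 3.11.15, pandas 2.3.3, numpy 2.4.6 and matplotlib 3.10.9 were used.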

Additional observations from a re-analysis of the deposited data

How the results depend on the processing

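No paired analysis was possible because the table holds 1 value per group, and for the same reason no sample could be left out. The number of fragments behind a value is unknown. Centring on expressed rows, a shift of 0.24, moved the median of the 20 rows with another symbol from -0.27 to -0.028 and turned the small RNA median from -0.02 to 0.22, and left 1 host row 2-fold lower in place of 2, as RPL32P3 dropped out at -0.85, while DANCR came to 1.18. It changed the sign of 4 of 39 single rows; pseudocounts and rescaling changed 0. A pseudocount of 1 took the smaller SNHG15 row from 1.78 to 0.50 and SCARNA6 from -1.31 to -0.53, both then within 2-fold, SNORD15B from 2.84 to 2.10 and SNORA81 with MIR1248 from -2.31 to -1.65. The small RNA median was -0.18 with a pseudocount of 0.1, -0.15 with a pseudocount of 1, 0.11 at a mean FPKM of at least 10 and -0.16 with SNHG rows added. With pseudocounts of 0.1 and 1, rows at 0 in 1 group enter, and small RNA rows 2-fold lower went from 13 to 38 and 36, and higher from 14 to 31 and 30. A fold of 1.5 gave 23 lower and 24 higher small RNA rows and 5 lower host rows. At a mean FPKM of at least 10, 1 host row was 2-fold lower. With SNHG rows counted as small RNAs, 0 host rows were 2-fold higher in place of 3. Chosen after seeing the data, restricting small RNAs to a single gene at the locus gave a median of 0.24, and not counting microRNA names as hosts left 1 host row 2-fold lower. The other alternatives listed kept medians within 0.1 and counts within 1.5 times.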
